A study of Mus musculus with 16 samples.

Results

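The cytosolic ribosomal protein genes are the genes whose symbol begins with Rpl or Rps followed by a number, together with Rpsa, Rplp0, Rplp1, Rplp2 and Fau. Annotated -ps copies, the ribosomal S6 kinases and Rps19bp1 were left out. The rule used names only and no measured value. It found 85 of the 17737 genes in the deposited table, of which 51 belong to the large and 34 to the small subunit. Of these, 78 are the main gene of a ribosomal protein and 7 are relatives of one (Rpl3l, Rpl7l1, Rpl22l1, Rpl32l, Rpl39l, Rps4l and Rps27l). GENCODE annotates Rpl32l and Rps4l as pseudogenes. Rack1, a protein of the small subunit without such a name, was not a member. Chromosome 7 held 14 members, more than any other chromosome.

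Ribosomal proteins bind ribosomal RNA in a small subunit, which decodes the mRNA, and a large subunit, which forms the peptide bond. Their mRNAs are short and abundant, are known to be regulated together, and mostly begin with a terminal oligopyrimidine (TOP) tract through which the growth kinase mTORC1 controls their translation. In the heart the family is known for its response to growth stimuli, and striated muscle has its own relative of 1 large-subunit protein, Rpl3l.

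The data were bulk RNA-seq of the lower part of the heart ventricles of male C57BL/6 mice, which were 6 weeks old at the start and then ate 1 of 4 diets for 6 months. The diets were standard rodent chow, a primate formula called NIA, a second primate formula called UW, and mNIA, which is NIA with the sucrose and fat content of UW. The animals were assigned to diets at random, and each library came from 1 animal, with 4 libraries per diet and 16 in all. All groups shared strain, sex, age and tissue. Groups follow the sample titles. The library codes do not spell those names (CC for chow, MNC for NIA, NC for UW and UC for mNIA), so each value for a single primate formula rests on the titles. If the 3 formula names were exchanged among their groups, the contrast of all formulas with chow would stay as it is.

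The libraries held between 2278250 counts (NIA replicate 4) and 6583532 counts (UW replicate 4), apart from NIA replicate 2 with 63005490. Members took from 1.36% of the counts in NIA replicate 1 to 3.899% in NIA replicate 4, with 1.86% to 2.74% in the 4 chow libraries. All 7 cardiomyocyte markers were detected, and their summed level was 42458 to 97002 CPM (the usual depth-scaled count, here after TMM scaling) over the 16 libraries. Of the atrial markers 2 were in the file, at 0.2 to 5.7 CPM in sum. Erythrocyte markers summed to 1166 to 7270 CPM. A quality weight below 0.5 in limma's model was given to 4 libraries, which were chow replicate 3, NIA replicates 1 and 4, and mNIA replicate 2. The weights were estimated from the same expression values. Fits without these libraries therefore leave out libraries chosen by the data, and their calls are not independent support.

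The family as a whole differed between libraries more than between diets. A level was computed for each library as the median, over the 84 members that passed the filter on low counts, of log2 CPM centred on each gene's mean over 16 libraries. On this log2 scale the chow libraries stood at -0.13, -0.11, 0.18 and -0.30. The NIA libraries stood at -0.33, 0.25, 0.35 and 1.61, so they held both the highest library and one of the lowest. The UW libraries stood at -0.14, -0.07, -0.25 and -0.57, and the mNIA libraries at -0.27, 0.48, -0.33 and -0.35. The mean over 4 libraries was -0.09 ± 0.20 (SD) for chow and 0.47 ± 0.82 for NIA, while UW had -0.26 ± 0.22 and mNIA -0.12 ± 0.40. These ranges overlapped in every pair of diets.

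NIA replicate 4 set the upper end of the range. Of the 84 tested members 82 had their highest CPM there, and the exceptions were Rpl30 and Rps4l. Its level lay 1.13 above the next library, mNIA replicate 2. Among the remaining 15 libraries the levels spanned 1.06 on the log2 scale. At the lower end, 53 members had their lowest CPM in UW replicate 4 and 26 in NIA replicate 1.

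The large and small subunits followed each other. In chow the large-subunit level was -0.08 ± 0.19 (SD, n = 4) and the small-subunit level -0.10 ± 0.20. The NIA levels were 0.45 ± 0.75 for the large and 0.48 ± 0.88 for the small subunit. The UW levels were -0.25 ± 0.21 and -0.26 ± 0.24, and the mNIA levels -0.10 ± 0.38 and -0.13 ± 0.43. Across the 16 libraries, which share the same scaling, the levels of the subunits had r = 0.995, and 0.986 without NIA replicate 4. The subunits came apart most in NIA replicate 1, where the large stood 0.18 above the small, and in NIA replicate 4, where it stood 0.17 below. In raw counts, the ratio of large-subunit to small-subunit members ran from 1.28 (NIA replicate 2) to 1.58 (NIA replicate 1).

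**Figure D1:**
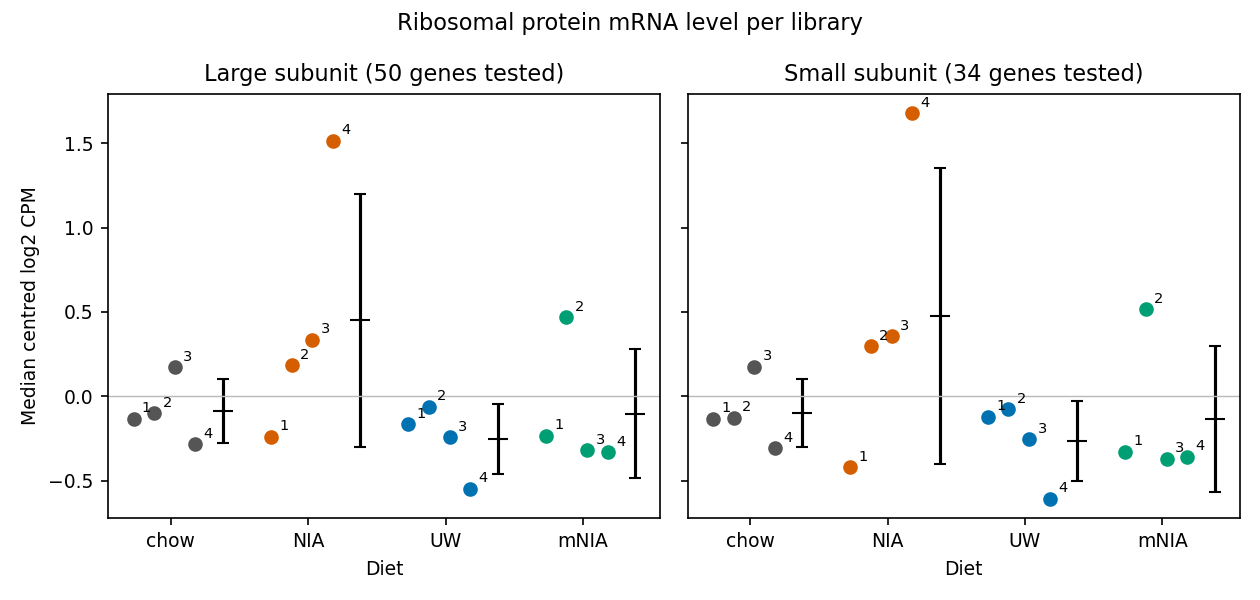
The level of the large (50 genes) and small (34 genes) subunit in each library, as the median centred log2 CPM, by diet. Points are libraries with their replicate number and bars are the mean ± SD of 4 libraries; NIA replicate 4 lies above all others in both panels, and mNIA replicate 2 above the other mNIA libraries.

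Members are short, and the level moved with that of other short mRNAs. The median transcript of a tested member was 705 bases long, against 2790.5 bases over all tested genes with a GENCODE length. The 849 non-members within the members' interquartile range of length (512.75 to 975.5 bases) had a median centred log2 CPM of 1.01 in NIA replicate 4, where members stood at 1.61. In UW replicate 4 those non-members stood at -0.31 and members at -0.57, and in mNIA replicate 2 the values were 0.24 and 0.48. Over the 16 libraries the members' level and that of these non-members had r = 0.986, and 0.954 without NIA replicate 4, where the points share library and scaling. The 12135 longer non-members stood at -0.24 in NIA replicate 4. Across the 13260 tested genes with a length, log2 CPM centred per gene had a rank correlation with length of -0.50 in NIA replicate 4 and 0.46 in UW replicate 4. The part of RNA integrity, library preparation or depth in this was not tested.

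Levels within the family differed widely. On the scale of mean CPM per kilobase of transcript, which allows genes to be compared, the highest large-subunit members were Rpl23a with 758, Rpl41 with 753, Rpl19 with 641 and Rpl31 with 581. Rpl23a lies at the exit of the peptide tunnel and Rpl41 is the smallest ribosomal protein. High small-subunit members were Rps15 with 783, Rps2 with 663 and Rps6, the target of the S6 kinases, with 580. The value of Rps20 (43.3) rests on a transcript model of 3706 bases, much longer than those of the other members, and is therefore not comparable.

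At the bottom stood Rpl34 with 22.0 CPM per kilobase, Rpl32l with 15.4, Rpl30 with 8.1 and Rpl39l with 0.2. Rpl39l, a relative of Rpl39 known from the testis, had 19 counts over all 16 libraries and was the 1 member that did not pass the filter. Rpl34 and Rpl30 are main genes of the large subunit, and their low values have a visible counterpart in the table. Rpl30 shares 98.4% of its span and its strand with a second row, Gm12191, and held 2.64% of the counts of both. Rpl34 shares 97.8% with Rpl34-ps1 and held 5.04%. Rpl26 shares 99.2% with Gm15772 and held 10.91%, and Rps27 shares 99.9% with Rps27rt and held 47.14%. For these 4 genes the value holds for the member's own row only, and how reads were divided between the rows was not examined.

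With both rows summed, Rpl30 stood at 388 CPM per kilobase, Rpl34 at 247, Rpl26 at 624 and Rps27 at 691. Rpl30 alone ranged from 0.85 CPM (mNIA replicate 1) to 11.1 CPM (chow replicate 2) and stood at 1.42 CPM in NIA replicate 4. The sum of Rpl30 and Gm12191 stood at 513 CPM in NIA replicate 4 and at 134 to 297 CPM in the other 15 libraries. The sum of Rpl34 and Rpl34-ps1 stood at 472 CPM there, against 58.3 to 158 CPM elsewhere. Summing was chosen after the values were seen. It moved Pearson's r between log2 CPM of Rpl30 and the members' median from -0.04 to 0.94 over the 16 libraries, and that of Rpl34 from 0.66 to 0.99.

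No member passed an adjusted p of 0.05 in edgeR's quasi-likelihood test in any of the 7 contrasts of diets or in the joint test of all 4 diets. Adjustment was over the 13381 tested genes. The mean of NIA, UW and mNIA against chow is the contrast that does not depend on which formula is which, and there 0 of 84 members were called (0.0% of all tested genes were). No member had an unadjusted p under 0.05, against 2.19% of all genes, and DESeq2 (0.0% of all genes) and limma-voom (0.0299%) called 0 members as well. The median log2 fold change of the members was 0.18, with 75 of 84 above 0, against 0.00 over all tested genes. Without NIA replicate 4 the members' median was 0.01 and 44 were above 0.

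NIA against chow gave the widest separation from chow, and 1 library carried most of it. The members' median log2 fold change was 0.72, with 81 of 84 members above 0, against a median of -0.01 over all tested genes. By subunit the median was 0.69 over 50 large and 0.76 over 34 small members. No member was called by edgeR (0.0% of all genes), the smallest adjusted p being 0.372. At an unadjusted p under 0.05 there were 42 members, against 8.7% of all tested genes. Of these, 41 were higher in NIA (6.52% of all genes were) and 1, Rps4l, was lower (2.18%). DESeq2 called 2 members, Rps24 (adjusted p = 0.0309) and Rpl35 (adjusted p = 0.0491), both higher in NIA, where it called 0.852% of all genes and 0.83% on the higher side. limma-voom called 0 members (0.209% of all genes). Without NIA replicate 4 the median was 0.18 and 4 members kept an unadjusted p under 0.05 in edgeR, which were Rpl14, Rps24, Rps26 and Rps27l (3.73% of all genes). Without the 4 libraries of low quality weight the median was 0.45 and edgeR called 0 members (1.63%), with a smallest adjusted p of 0.0507. The 849 non-members of like length had a median log2 fold change of 0.34 in this contrast with all 16 libraries.

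In 10 members all 4 NIA libraries lay above all 4 chow libraries, which held for 1.32% of all tested genes. Among them were Rpl5, Rpl14, Rpl22, Rpl23a, Rps3a1, Rps6, Rps24, Rps26 and Rps27l. No member had all NIA libraries below chow (1.91% of all genes). In Rpl35 NIA replicate 1 was also above chow, but NIA replicate 2 was not.

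**Figure D2:**
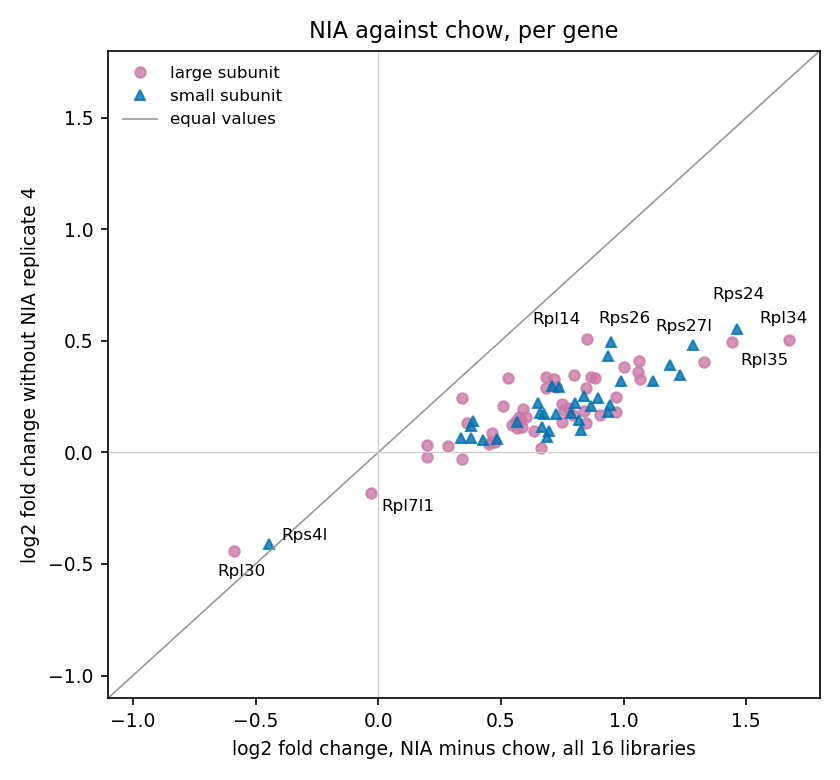
Log2 fold change of NIA minus chow for each of the 84 tested members, with all 16 libraries (horizontal) and without NIA replicate 4 (vertical). Most points lie far below the line of equal values, with medians of 0.72 and 0.18, while Rps4l, Rpl30 and Rpl7l1 lie below 0 on both axes.

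Rps24, a small-subunit protein needed to process the precursor of small-subunit RNA, had the smallest p in this contrast. The gene lies on chromosome 14 at 24490678 to 24496961 (mm10, plus strand). It stood at 486, 499.97, 625 and 419 CPM in chow and at 802, 670.05, 761 and 3375 CPM in NIA. All NIA values were above all chow values, and NIA replicate 4 stood far above the rest. UW libraries had 497, 531, 531 and 396 CPM, and mNIA libraries 669, 794, 472 and 398 CPM, so mNIA overlapped both. The log2 fold change of NIA against chow was 1.46 ± 0.43 (SE; edgeR adjusted p = 0.372), and 0.56 without NIA replicate 4.

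Rpl35, a large-subunit protein beside the exit of the peptide tunnel, stood at 205, 217, 290.3 and 174 CPM in chow. NIA libraries had 351, 255, 328 and 1479 CPM. Replicate 2 of NIA lay within the chow range. The log2 fold change was 1.44 ± 0.45 (SE; edgeR adjusted p = 0.400), and 0.49 without NIA replicate 4. In UW the gene stood at 220.4, 221, 232 and 166 CPM.

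Rps27l, a p53-responsive relative of Rps27, stood at 42.7, 46.6, 55.2 and 37.0 CPM in chow and 55.4, 69.3, 64.3 and 262 CPM in NIA. The lowest NIA value was barely above the highest chow value. UW libraries were at 41.8, 38.9, 36.0 and 31.0 CPM, and mNIA libraries at 42.3, 73.9, 41.8 and 33.7 CPM. Its log2 fold change against chow was 1.28 ± 0.40 (SE; edgeR adjusted p = 0.397), and 0.48 without NIA replicate 4. Of all members it had the smallest p in the joint test of 4 diets (edgeR adjusted p = 0.313).

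The windows from 30 bases before to 15 bases from the annotated start are shown for these 3 genes, for Rpl38, which had the third smallest joint p, and for 4 genes described further on, which are Rpl41, one of the members most like the rest in level, the relatives Rpl3l and Rpl7l1, and Rps27, the main gene beside Rps27l. They come from RefSeq on GRCm38.p6, read in the direction of transcription, and capitals mark the longest run of C and T within 15 bases of the start. They are at chr14:24490648-24490692 (Rps24), chr2:39005117-39005161 (Rpl35, minus strand), chr9:66946056-66946100 (Rps27l), chr11:114668550-114668594 (Rpl38), chr10:128549154-128549198 (Rpl41, minus strand), chr3:90213634-90213678 (Rps27, minus strand), chr17:24727796-24727840 (Rpl3l) and chr17:46782642-46782686 (Rpl7l1, minus strand).
Rps24: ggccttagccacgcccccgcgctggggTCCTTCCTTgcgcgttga
Rpl35: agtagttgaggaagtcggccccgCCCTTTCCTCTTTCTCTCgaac
Rps27l: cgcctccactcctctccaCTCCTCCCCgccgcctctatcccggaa
Rpl38: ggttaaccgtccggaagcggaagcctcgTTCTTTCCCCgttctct
Rpl41: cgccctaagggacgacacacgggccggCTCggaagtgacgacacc
Rps27: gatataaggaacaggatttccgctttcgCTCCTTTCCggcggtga
Rpl3l: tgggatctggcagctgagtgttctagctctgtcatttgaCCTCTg
Rpl7l1: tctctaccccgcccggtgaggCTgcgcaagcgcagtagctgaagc
The run reached 18 bases in Rpl35 and 9 in Rps24, Rps27l and Rps27, and 10 in Rpl38. It was 3 bases in Rpl41, 5 in Rpl3l and 2 in Rpl7l1. Rpl41 is among the 4 members most like the rest in level. The others of those 4, whose windows are not shown, had runs of 7 (Rpl12), 7 (Rps25) and 4 (Rpl35a). A relation between run and likeness was not tested.

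A promoter entry was at hand for 64 of the 85 members. A run of at least 8 C or T within 15 bases of the start was found in 27 of them (42.2%) and in 11.9% of the 27025 genes with an entry, taking 1 entry per gene. For members this was the entry nearest the gene's own start, and for all genes the entry with the lowest coordinate. The shares here and below are therefore not like for like. In the full window of 300 bases (250 before the start and 50 from it on), on both strands, CCGGAAG was present in 39.1% of the members and 9.08% of all genes. AAGATGG was present in 17.2% and 6.46%, CTTTCC in 43.8% and 26.3%, and TATAAA in 12.5% and 14.1%. These are matches of letters in annotated windows and not measured sites.

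UW and NIA had the largest median difference of the 7 contrasts. The median log2 fold change of UW minus NIA was -0.90, with 82 of 84 members below 0, and the median over all tested genes was 0.00. The medians were -0.87 for the large and -0.92 for the small subunit. By edgeR 0 members were called (0.0% of all genes, smallest adjusted p = 0.139), while 67 members had an unadjusted p under 0.05, all lower in UW, against 13.9% of all tested genes and 8.71% on the lower side. DESeq2 called 14 members, all lower in UW (2.44% of all genes, 1.98% lower). limma-voom with quality weights called 15, all lower (6.85% of all genes, 2.97% lower). In 22 members all UW libraries lay below all NIA libraries, against 3.06% of all tested genes, and in none did they all lie above (3.29%). The 849 non-members of like length had a median of -0.56.

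Leaving out libraries moved this contrast in both directions. Without NIA replicate 4 the median was -0.33, 0 members were called by edgeR (0.0%) and 13 had an unadjusted p under 0.05 (7.84% of all genes). Without NIA replicate 2, the deepest library, edgeR called 5 members, all lower in UW (1.61% of all genes, 1.52% lower). Without the 4 libraries of low quality weight the median was -0.51 and edgeR called 40 members, all lower in UW, against 11.8% of all genes and 3.54% on the lower side. That fit holds only 2 NIA libraries, replicates 2 and 3.

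Rpl38, a large-subunit protein known for its part in translating Hox mRNAs, was among the members that separated UW from NIA. It stood at 94.1, 92.8, 159 and 82.6 CPM in chow, 149, 126, 150.4 and 477 CPM in NIA, 93.8, 90.7, 80.4 and 59.4 CPM in UW, and 107, 156, 77.3 and 76.7 CPM in mNIA. NIA and UW did not overlap, while chow replicate 3 lay above all NIA libraries except replicate 4. Its log2 fold change of UW minus NIA was -1.46 ± 0.38 (SE; edgeR adjusted p = 0.139), and DESeq2 gave an adjusted p of 0.0116. The log2 fold change was -0.78 ± 0.26 (SE; edgeR adjusted p = 0.511) without NIA replicate 4.

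Rps12, a protein of the head of the small subunit, stood at 213, 301, 274 and 1058 CPM in NIA and at 194, 154, 145 and 115 CPM in UW. Chow libraries had 174, 175, 308 and 149.7 CPM. The log2 fold change of UW minus NIA was -1.60 ± 0.45 (SE; edgeR adjusted p = 0.156), and -0.76 without NIA replicate 4. Rps27l, whose values are given above, had -1.58 ± 0.40 (SE; edgeR adjusted p = 0.139) and did not overlap between the diets, since its lowest NIA library stood at 55.4 CPM and its highest UW library at 41.8 CPM. The largest value, -2.54 ± 0.70 (SE; edgeR adjusted p = 0.148), was that of Rpl34, which shares its locus with Rpl34-ps1. With the rows summed it was -1.37 ± 0.42 (SE; edgeR adjusted p = 0.186). For Rps27l the log2 fold change was -0.75 without NIA replicate 4, and for the Rpl34 row alone it was -1.35.

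mNIA and NIA, which differ by design in sucrose and fat, gave a median log2 fold change of -0.72 for mNIA minus NIA, with 81 of 84 members below 0. The contrast shares the NIA libraries with those above. By edgeR 0 members were called (0.0% of all genes, smallest adjusted p = 0.549) and 46 had an unadjusted p under 0.05, all lower in mNIA, against 8.91% of all genes and 5.65% on the lower side. DESeq2 called 0 members (0.0%) and limma-voom called 25, all lower in mNIA (14.8% of all genes, 6.37% lower). Without NIA replicate 4 the median was -0.20 and no member had an unadjusted p under 0.05 (3.8% of all genes). Without the 4 libraries of low quality weight it was -0.61 and 55 members were called by edgeR, all lower in mNIA, against 23.1% of all genes and 9.11% on the lower side. Those libraries were picked by weights estimated from the same values, so these calls are not independent support. No member separated the 4 mNIA from the 4 NIA libraries (1.46% of all genes were wholly higher in mNIA and 0.882% wholly lower). mNIA replicate 2 was above the gene's mean in 83 of 84 members, and NIA replicate 1 in 19.

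In that fit of 12 libraries the smallest adjusted p in mNIA minus NIA was that of Rps21, a small-subunit protein, with a log2 fold change of -1.11 (edgeR adjusted p = 0.00179). Its values were 108, 205, 196 and 581 CPM in NIA and 91.7, 189.6, 94.0 and 94.6 CPM in mNIA. NIA replicate 1 and mNIA replicate 2, both left out there, crossed the range of the other diet. With all 16 libraries the log2 fold change of Rps21 was -1.21 ± 0.41 (SE; edgeR adjusted p = 0.549), and it was -0.54 without NIA replicate 4 alone.

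Neither UW nor mNIA had a member that differed from chow past the threshold. For UW minus chow the median was -0.17 with 77 of 84 members below 0, and for mNIA minus chow it was -0.0043 with 41 above and 43 below. Neither contrast held a called member in edgeR (0.0% of all genes in UW and 0.00747% in mNIA), in DESeq2 (0.00747% and 0.0%) or in limma-voom (0.00747% in both), and no member had an unadjusted p under 0.05 in edgeR (2.35% and 1.38% of all genes). The contrasts share the chow libraries. Single libraries set the size of the median in UW minus chow, which was -0.07 without chow replicate 3 (65 members below 0), -0.08 without UW replicate 4 (62 below) and -0.25 without chow replicate 4 (82 below). In mNIA minus chow the median was 0.11 without chow replicate 3 and -0.28 without mNIA replicate 2. The 3 members with the smallest p on the lower side were Rps4l, Rps29 and Rpl34 in UW, and Rps29, Rpl30 and Rps20 in mNIA. Rps29, a zinc-binding small-subunit protein, stood at 204, 211, 319 and 189.5 CPM in chow, 192, 207, 142 and 115 CPM in UW, and 127, 304, 143 and 157 CPM in mNIA, so both overlapped chow. On the higher side the leading members were Rplp0, Rpl23a and Rps6 in UW, with none above 0.06 on the log2 scale, and Rpl4, Rpl14 and Rpl21 in mNIA, where Rpl14 had 0.19 ± 0.27 (SE).

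For mNIA minus UW, diets matched by design in sucrose and fat, the median was 0.16 and 82 of 84 members were above 0. No member was called (0.0% of all genes) or had an unadjusted p under 0.05 in edgeR (0.986%), and DESeq2 and limma-voom called 0 members (0.00747% each). The direction rested on mNIA replicate 2: without it the median was -0.08 and 17 members were above 0.

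In the joint test of the 4 diets edgeR called 0 members (0.0% of all genes) and 36 had an unadjusted p under 0.05, against 6.88% of all genes. DESeq2 called 7 (1.3%), which were Rps24, Rps27l, Rpl34, Rpl35, Rpl38, Rpl17 and Rps12, and limma-voom called 23 (14.8%). Without NIA replicate 4 edgeR called 0 members and 1 had an unadjusted p under 0.05 (3.52% of all genes). Without the 4 libraries of low quality weight edgeR called 30 (9.97%).

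**Figure D3:**
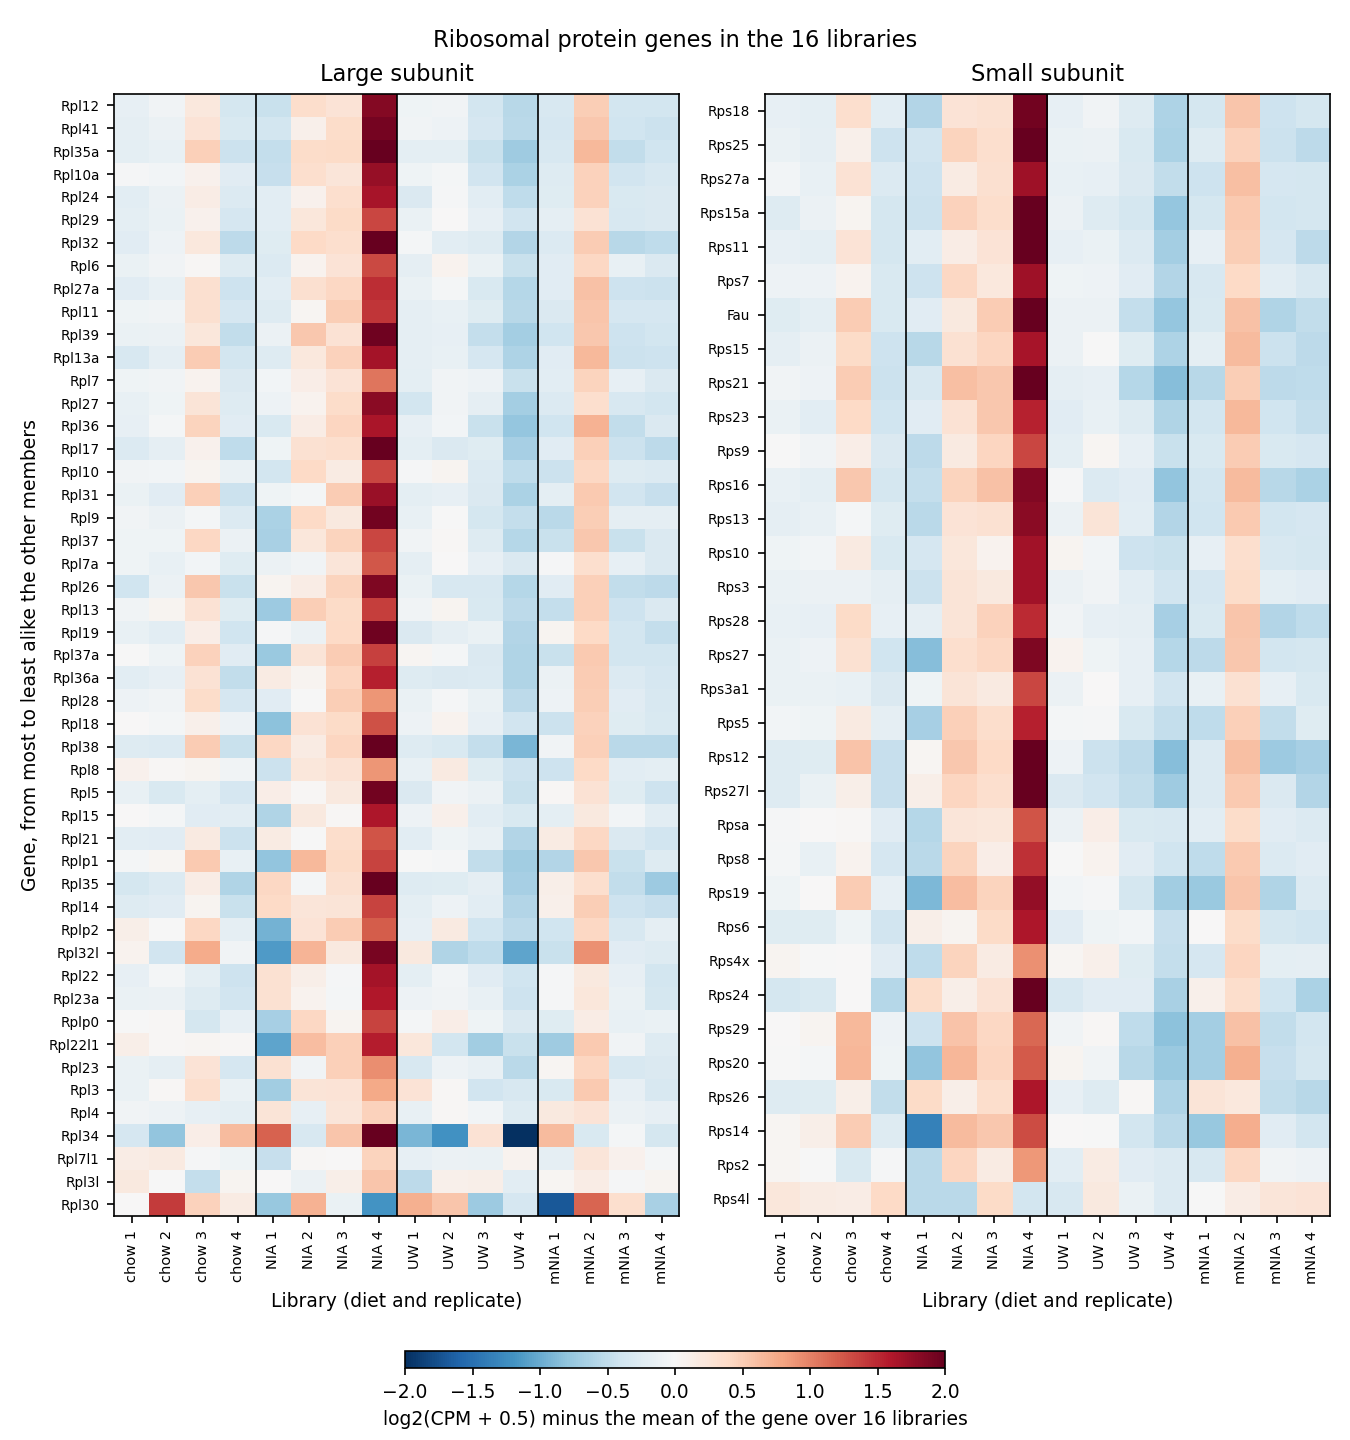
Heat map of 82 tested members in the 16 libraries, as log2(CPM + 0.5) minus the mean of the gene, with the members of each subunit ordered from most to least alike the median of the others; values beyond -2 and 2 are drawn at the ends of the colour scale. The column of NIA replicate 4 is above the mean throughout except for Rpl30 and Rps4l.

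Most members followed the family closely. The correlation of a member's log2 CPM with the median of the other members over the 16 libraries had a median of 0.958, and 64 of 84 members were above 0.9. Without NIA replicate 4 the median was 0.904 and 43 were above 0.9. All values of a library share its depth and scaling. The most alike were Rpl12 (r = 0.994), Rpl41 (0.993), Rpl35a (0.992) and Rps25 (0.991). Rpl12, a protein at the base of the stalk, stood at 196, 209.5, 256 and 172 CPM in chow, 161, 281, 267 and 787 CPM in NIA, 208, 209.4, 171 and 151 CPM in UW, and 176, 310.1, 172 and 171 CPM in mNIA.

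The least alike were Rps4l (r = -0.19), Rpl30 (-0.05), Rpl3l (0.50) and Rpl7l1 (0.64), so 3 of the 4 were relatives of a main gene and the other was the member that shares its locus with Gm12191. Rps4l, a relative of Rps4x annotated as a pseudogene, stood at 28.3, 26.97, 26.7 and 31.8 CPM in chow and 16.4, 16.5, 31.5 and 18.5 CPM in NIA. It was the 1 member with an unadjusted p under 0.05 and a lower mean in NIA, with a log2 fold change of -0.44 ± 0.21 (SE; edgeR adjusted p = 0.565). NIA replicate 3 lay within the chow range.

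Non-members with a high correlation to the members' median were Use1 (r = 0.983), Rpl34-ps1 (0.982), Rplp2-ps1 (0.979), Tmem50a (0.977) and Rps27rt (0.977). Of these, Rpl34-ps1 and Rps27rt are the second rows of member loci. Over the 13297 tested non-members 1.41% had r above 0.9. The 200 most alike non-members had a median transcript length of 759 bases, and the 200 least alike 6710.5 bases.

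The stalk of the large subunit recruits the translation factors that use GTP, and its proteins are Rplp0, Rplp1 and Rplp2. Rplp0 stood at 562, 577, 441 and 508 CPM in chow, 357, 756, 589 and 1439 CPM in NIA, 552, 622, 533 and 465 CPM in UW, and 477, 625, 508 and 516 CPM in mNIA. Chow and each other diet overlapped. Rplp1 ranged from 135 CPM (NIA replicate 1) to 599 CPM (NIA replicate 4), and Rplp2 from 57.9 to 261 CPM in the same libraries. For Rplp0 the log2 fold change of NIA against chow was 0.59 ± 0.32 (SE; edgeR adjusted p = 0.608), and 0.11 without NIA replicate 4. Rpsa, a small-subunit protein once described as a laminin receptor, ranged from 328 to 1164 CPM in NIA and from 415 to 496 CPM in chow. Fau, which encodes a small-subunit protein fused to a ubiquitin-like one, ranged from 117 to 579 CPM in NIA and from 111 to 194 CPM in chow. In each of these 5 genes the NIA range contained the chow range or overlapped it.

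Relatives were compared with their main gene inside each library, as a ratio of counts with 0.5 added, which no scaling of libraries touches. Rpl3l replaces Rpl3, a protein beside the catalytic centre, in ribosomes of striated muscle. Rpl3l stood at 288, 250.3, 179 and 259 CPM in chow, 251, 231, 272 and 369 CPM in NIA, 174, 269, 271 and 216 CPM in UW, and 257, 277, 246 and 259 CPM in mNIA. Rpl3 stood at 186, 207, 255 and 185 CPM in chow, 125, 242, 247 and 344 CPM in NIA, 245, 206, 156 and 163 CPM in UW, and 164, 292, 182 and 162 CPM in mNIA. The transcripts are 1375 and 1351 bases long, so the levels are nearly comparable as they stand.

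Counts of Rpl3l per count of Rpl3 were 1.54, 1.21, 0.70 and 1.41 in chow, 2.00, 0.95, 1.10 and 1.07 in NIA, 0.71, 1.30, 1.74 and 1.33 in UW, and 1.57, 0.95, 1.35 and 1.60 in mNIA. Rpl3l was thus the more abundant of the pair in 12 of 16 libraries, and in each diet the ratio was below 1 in 1 library and above 1.5 in at least 1 other. The mean ratio over 4 libraries was 1.22 ± 0.37 (SD) for chow and 1.28 ± 0.48 for NIA, while UW had 1.27 ± 0.42 and mNIA 1.37 ± 0.30. The log2 ratio differed by 0.11 between the primate formulas and chow (exact permutation test over libraries, 2-sided, p = 0.666, adjusted p = 0.879 over 16 tests), and by -0.13 without chow replicate 3. The 4 libraries with a ratio below 1 were also the 4 lowest in the summed level of the 7 cardiomyocyte markers. Those sums were 47587 CPM in chow replicate 3, 42458 CPM in NIA replicate 2, 46851 CPM in UW replicate 1 and 54295 CPM in mNIA replicate 2, against 68408 to 97002 CPM in the other 12. The match rests on the cut at 1. The next lowest ratio, 1.07 in NIA replicate 4, went with a sum of 94713 CPM, near the upper end. In the summed level of the 6 endothelial markers chow replicate 3 and UW replicate 1 were the highest (1874 and 1769 CPM, against 522 to 1613 CPM in the others). Here mNIA replicate 2 stood at 1613 CPM and NIA replicate 2 at 1219 CPM. In bulk tissue a different share of muscle cells and a different amount of RNA per cell cannot be told apart, and their part in the ratio was not tested.

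**Figure D4:**
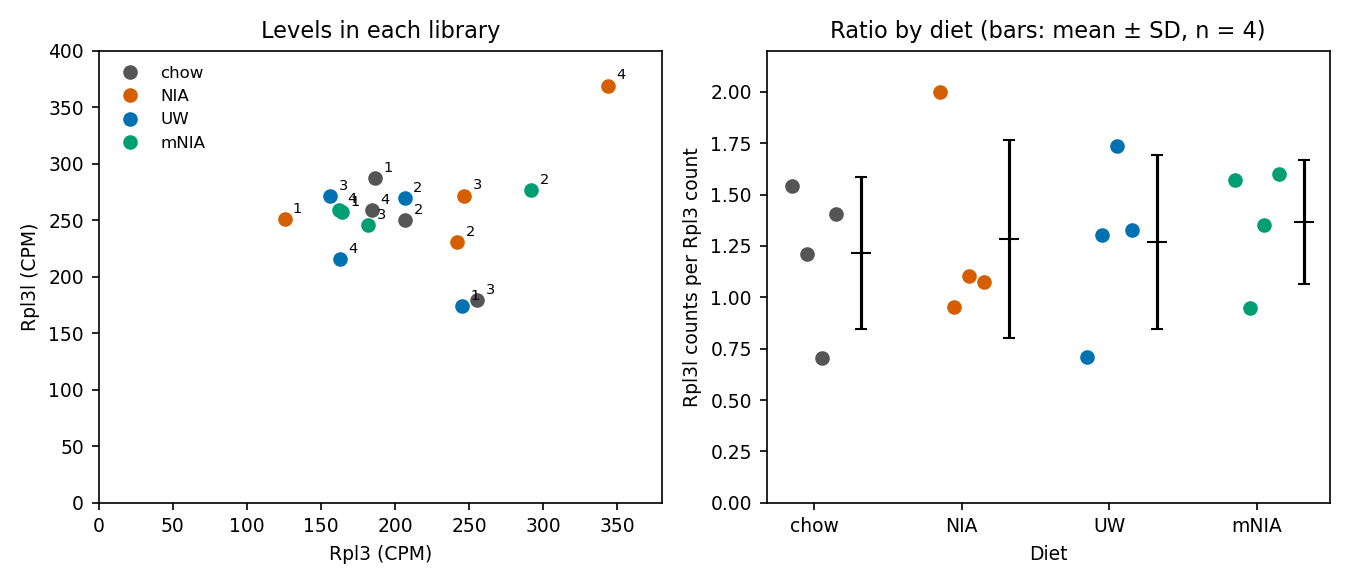
Left, CPM of Rpl3l against Rpl3 in the 16 libraries, with replicate numbers; right, counts of Rpl3l per count of Rpl3 by diet, with the mean ± SD of 4 libraries. The ratio runs from 0.70 (chow replicate 3) to 2.00 (NIA replicate 1), and all 4 diets overlap.

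Rpl22l1, the relative of Rpl22, stood at a ratio of 0.150, 0.127, 0.145 and 0.166 in chow and 0.047, 0.175, 0.173 and 0.116 in NIA. The log2 ratio of the primate formulas minus chow was -0.35 (exact permutation p = 0.232, adjusted p = 0.642). Rpl7l1, a nucleolar relative of Rpl7, stood at 0.140, 0.141, 0.112 and 0.138 per Rpl7 count in chow and at 0.090, 0.111, 0.099 and 0.077 in NIA. All 4 NIA libraries lay below all 4 chow libraries, which gives p = 0.0286, the smallest that an exact 2-sided permutation test of 4 against 4 can give, and an adjusted p of 0.457. Rpl7l1 itself had a log2 fold change of -0.03 ± 0.18 (SE; edgeR adjusted p = 0.985) between these diets and Rpl7 stood at 543 ± 209 CPM (SD, n = 4) in NIA and 381 ± 38.7 CPM in chow.

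Rps27l stood at 0.471, 0.50, 0.449 and 0.488 per Rps27 count in chow, 1.00, 0.548, 0.483 and 0.714 in NIA, 0.399, 0.411, 0.406 and 0.461 in UW, and 0.608, 0.505, 0.541 and 0.429 in mNIA. The log2 ratio of NIA minus chow was 0.47 (exact permutation p = 0.0857, adjusted p = 0.457) and that of UW minus chow -0.19 (exact permutation p = 0.0571, adjusted p = 0.457). None of the 16 tests of ratios had an adjusted p under 0.05, and with 4 libraries a group the smallest possible p is 0.0286. Since Rps27 shares its span and strand with Rps27rt, these ratios hold for the Rps27 row only.

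Members differed from each other most in NIA replicates 1 and 4. Among the 74 main genes that do not share their locus, the interquartile range of the centred log2 CPM was 0.46 for NIA replicate 1 and 0.53 for NIA replicate 4, while the remaining 14 libraries had 0.12 to 0.33. In NIA replicate 1 the highest above the family were Rpl35 (by 0.73), Rpl38 (0.73), Rpl14 (0.71), Rps26 (0.70) and Rps24 (0.68). The lowest were Rps14 (-1.03), Rplp2 (-0.64), Rps19 (-0.59), Rpl18 (-0.51) and Rplp1 (-0.48). In NIA replicate 4 Rpl35 (0.88), Rps24 (0.83) and Rpl17 (0.79) were highest and Rpl4 (-1.16), Rpl3 (-0.86) and Rps2 (-0.75) lowest.

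These deviations had a rank correlation of 0.61 with the share of A in the transcript in NIA replicate 1 and -0.36 with transcript length in NIA replicate 4, a description chosen after the values were seen. With A content the other libraries ran from -0.52 (chow replicate 4) to 0.47 (mNIA replicate 1), and with length from -0.45 (chow replicate 3) to 0.45 (UW replicate 4). The 9 members with a value for A content among the 10 whose NIA and chow libraries did not overlap had a median of 28.4% A, against 26.3% over the 74 genes. The 21 with a value among the 26 members lowest in NIA replicate 1 had 23.7%. Both groups were picked by values that include NIA replicate 1. Their medians are therefore not a separate observation from the correlation in that library. NIA replicate 1 held 3143385 counts and NIA replicate 4 held 2278250, the smallest of the 16 libraries, and the part of depth or RNA quality was not tested.

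**Figure D5:**
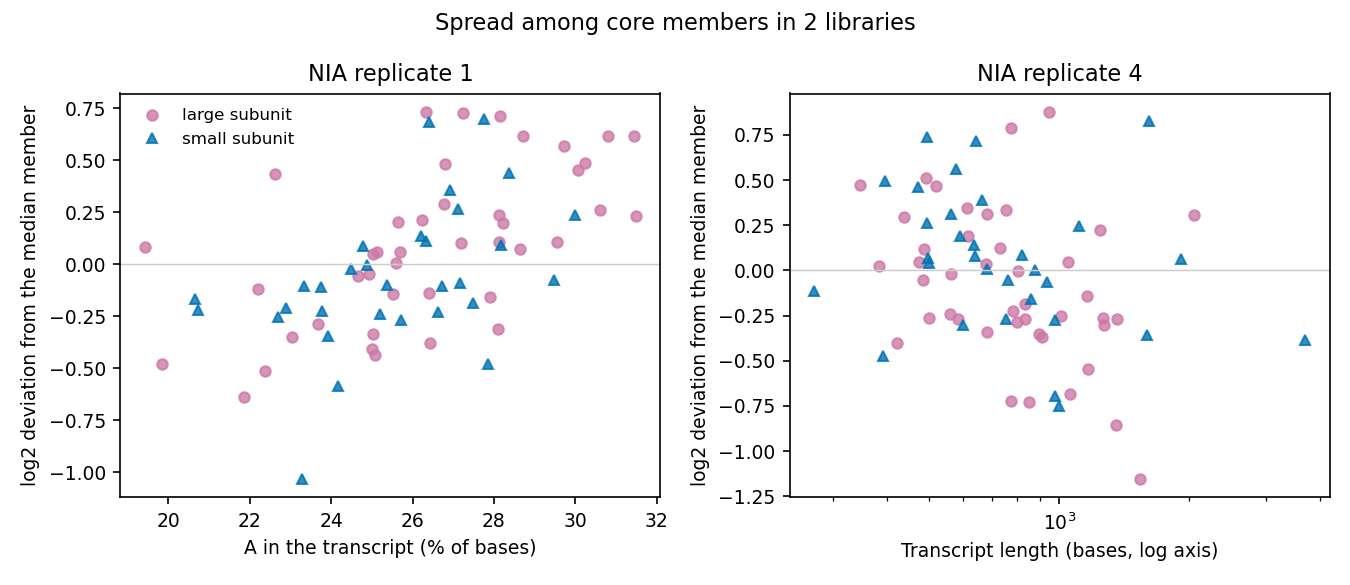
Deviation of each of 74 main genes from the median member, on the log2 scale, against the percent of A in its transcript for NIA replicate 1 (left) and against transcript length, on a log axis, for NIA replicate 4 (right). Points slope upward on the left (rank correlation 0.61) and downward on the right (-0.36).

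Genes around the ribosome were described from lists named by function, beside all tested genes, of which 48.6% were above 0 in NIA minus chow and 8.7% had an unadjusted p under 0.05. Translation factors with TOP mRNAs had 18 of 21 tested members above 0 in NIA minus chow, with a median of 0.26 and 8 at an unadjusted p under 0.05. The median of this list was 0.17 without NIA replicate 4, with 16 above 0 and 1 at an unadjusted p under 0.05. Eef1b2, a subunit of the elongation factor complex, stood at 493 CPM in NIA replicate 4 and at 126 to 221 CPM elsewhere. Tpt1, a TOP mRNA, stood at 4505 CPM there and at 1249 to 2506.5 CPM elsewhere. Eef2, the translocation factor and also a TOP mRNA, stood at 647 CPM there, its lowest value, against 895 to 1836 CPM elsewhere. The TOP list was thus not of 1 direction in that library.

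Ribosome biogenesis factors had 18 of 34 above 0 in NIA minus chow and a median of 0.03 (3 at an unadjusted p under 0.05). Rrp12, an export factor of pre-ribosomes, had the smallest joint p of that list, stood at 14.9 to 20.6 CPM in chow and 9.2 to 13.6 CPM in NIA, and had an edgeR adjusted p of 0.326 in the joint test. The mTORC1 and TOP control genes had 8 of 19 above 0, with a median of -0.10 (2 at an unadjusted p under 0.05). Chaperones and rescue factors of the ribosome had 5 of 9 above 0 and a median of 0.02, with 0 at that p. These 3 lists had medians of 0.0044, -0.14 and 0.11 without NIA replicate 4.

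The mitochondrial lists moved with NIA replicate 4, as the members did. Proteins of the mitochondrial ribosome, a separate set of genes, had 77 of 78 above 0 in NIA minus chow with a median of 0.45 and 27 at an unadjusted p under 0.05. With that library left out the median was 0.09, 58 were above 0 and 2 had an unadjusted p under 0.05. Genes of the respiratory chain and ATP synthase, picked by symbol with no cut on length, had 64 of 69 above 0. Their median was 0.67, with 30 at that p. In the fit of 15 libraries their median was 0.12, 50 were above 0 and 2 had an unadjusted p under 0.05. The median centred log2 CPM in NIA replicate 4 was 1.24 for the mitochondrial ribosome, where NIA replicates 1 to 3 had -0.11 to 0.15. For the list of respiratory chain and ATP synthase genes it was 1.62, where those replicates had -0.09 to 0.37. Members had a median of 0.72 in the same contrast, and 0.18 without NIA replicate 4. None of these lists held a gene called by edgeR in any of the 7 contrasts of diets.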

How the data were processed

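Poly-A selected, stranded libraries (Kapa mRNA HyperPrep) from RNA with an integrity number above 7.0 were read as 75-base single reads, per the labels' protocols. Values in the deposited table are expected counts, 1 per gene and library, and the submitters' processing notes name BWA, DESeq2 and mm10, while the counting tool is not given in the sources used here. Values were rounded to whole counts: 82 members had a value that was not whole (beyond 0.005) in at least 1 library.

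Genes were kept by filterByExpr (13381 genes, 84 members). edgeR 4.0.16 under R 4.3.3 fitted a quasi-likelihood model with TMM scaling and 1 mean per diet, Benjamini-Hochberg adjustment over all tested genes and a threshold of 0.05. SE is the log2 fold change over the square root of F. CPM are TMM-scaled, and log2 CPM have a prior count of 2. Alternatives were DESeq2 1.42.0, limma-voom 3.58.1 with quality weights, other scalings and filters, a replicate block and left-out libraries. Transcript lengths are from GENCODE vM21, taking the shortest basic transcript of the best APPRIS level. Paralogue ratios were tested by exact permutation (SciPy) where the relative had a mean of at least 10 counts. The model was also run on simulated counts with a smaller spread than these data and no outlying library. That run therefore does not show how the model behaves with a library like NIA replicate 4.

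Named members were the paralogue pairs, stalk proteins, Rpsa and Fau, the highest and lowest per kilobase, up to 3 with the smallest p per contrast and direction, 5 in the joint test, 4 most and 4 least alike, and 6 non-members most alike, of which a few are not reported here. Others were chosen after their values were seen. The members and all lists were chosen with earlier results of these data known.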

Additional observations from a re-analysis of the deposited data

Results flagged for a closer look

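A value is listed here where 1 library lay far from the other 3 of its diet, past Dixon's 95% limit for the gap to the nearest relative to the range. The groups were the levels of all, large and small members, the ratios of relatives, and the tested members picked by the naming rule above. Other members were not screened, so their absence here does not mean that no library stood apart. Rpl5, for example, stood at 1747 CPM in NIA replicate 4 and at 466 to 528 CPM in the other NIA libraries. The limit was passed in 40 of 184 groups of 4 libraries, and chance gives about 1 in 20. Genes measured in 1 library share its scaling and depth, so the cases are not independent, and their cause was not tested.

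NIA replicate 4 was set apart in 14 of the groups screened, all of them high. In that library Fau stood at 579 CPM, Rpl14 at 370 CPM, Rpl19 at 1671 CPM, Rpl22 at 534 CPM, Rpl23a at 1203 CPM, Rpl35 at 1479 CPM, Rpl35a at 868 CPM and Rpl36a at 314 CPM. Rpl38 stood at 477 CPM, Rps12 at 1058 CPM, Rps24 at 3375 CPM, Rps25 at 1222 CPM, Rps27l at 262 CPM and Rps6 at 1453 CPM. For Rps24 the other NIA libraries stood between 670.05 and 802 CPM.

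mNIA replicate 2 was set apart in 15 of the groups screened, again all high. The level of all members stood at 0.48 on the centred log2 scale, that of the large subunit at 0.47 and that of the small at 0.52, where the other mNIA libraries were between -0.37 and -0.23. Rpl12 stood at 310 CPM, Rpl3 at 292 CPM, Rpl32l at 10.2 CPM, Rpl35a at 310 CPM, Rpl39 at 120 CPM, Rpl41 at 429 CPM and Rpl7 at 554 CPM. Rps20 stood at 243 CPM, Rps21 at 190 CPM, Rps27 at 146 CPM, Rps29 at 304 CPM and Rpsa at 630 CPM.

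In chow replicate 3 the ratio of Rpl7l1 to Rpl7 was low (0.112), and Fau (194 CPM), Rpl38 (159 CPM), Rps12 (308 CPM), Rps20 (233 CPM) and Rps29 (319 CPM) were high. NIA replicate 1 had a high ratio of Rpl3l to Rpl3 (2.00), and NIA replicate 3 a high Rps4l (31.5 CPM). UW replicate 4 had a high ratio of Rpl7l1 to Rpl7 (0.170) and a low Rpl36a (70.1 CPM), and UW replicate 2 a high Rps2 (722 CPM).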

How the results depend on the processing

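Of the comparisons of called members, those of NIA, UW and mNIA with chow and of mNIA with UW had 0 under every alternative except DESeq2, which called 2 in NIA minus chow. In UW minus NIA the count was 14 under DESeq2, 15 under limma-voom with quality weights and 40 when the 4 libraries of low quality weight were left out. In mNIA minus NIA it was 25 under limma-voom and 55 without those 4 libraries, and in the joint test 7 under DESeq2, 23 under limma-voom and 30 without those 4. The cause was not tested. Leaving out 1 library at a time gave 0 to 5 called members in UW minus NIA (5 without NIA replicate 2) and 0 in the others. It moved the median log2 fold change between 0.18 and 1.00 in NIA minus chow, between -1.16 and -0.33 in UW minus NIA, between -1.06 and -0.20 in mNIA minus NIA, between -0.28 and 0.11 in mNIA minus chow, between -0.25 and -0.07 in UW minus chow, between 0.005 and 0.29 in the formulas minus chow, and between -0.08 and 0.25 in mNIA minus UW. The log2 ratio of Rpl3l to Rpl3 in the formulas minus chow was -0.14 without the 4 libraries and -0.13 to 0.24 with 1 library left out, and that of Rps27l to Rps27 was -0.044 without the 4.

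With the replicate number as a block, 0 members were called in each comparison, and the median was 0.67 in NIA minus chow and -0.84 in UW minus NIA. Correlations between same-numbered libraries of different diets ran from -0.58 to 0.61 (mean -0.03). Those between differently numbered libraries of different diets ran from -0.56 to 0.71 (mean 0.01). These values cannot decide whether same-numbered libraries shared a batch, and no batch is labelled. Replicate numbers follow the titles, and in mNIA they differ in part from the numbers in the library codes. Depth limits the low members: Rpl39l had 19 counts in all.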
